A study of Mus musculus with 6 samples.

Results

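This account covers the expressed Zfp genes of mouse embryonic stem (ES) cells. Members were selected on their control vector signal: they are genes with an annotated symbol of the form Zfp plus digits whose mean log2 signal over the 3 control vector arrays was at least 9, read from the brightest probe set of each gene. Of 317 such Zfp genes on the array, 207 lay below that level, 4 (Zfp42, Zfp352, Zfp36 and Zfp57) were left out by name, and 106 were members, out of 19937 genes measured. The tested group was 46C-derived ES cells with a FLAG-CTCFL vector, and it was compared with 46C-derived ES cells that carry a control vector. Both groups share the 46C line, which is male, of 129P2/OlaHsd background and holds a Sox1-GFP knock-in, as well as medium with 10% serum and constant selection in 1 µg/ml puromycin. Each group had 3 arrays, made from 200 ng of total RNA each. CTCFL is a germ line relative of the insulator protein CTCF. The sources describe stable transfection and biological replicates but not how many clones or transfections stand behind a group, so each p-value reflects how far these few arrays scatter, which may be technical.

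Most Zfp genes encode proteins with arrays of Cys2-His2 zinc fingers, loops folded around a zinc ion that read short stretches of DNA. Many also carry a KRAB domain, which recruits the corepressor TRIM28 and, through it, the histone methyltransferase SETDB1, and in ES cells this pathway silences endogenous retroviruses and protects imprints. Others have no KRAB domain and work in transcription complexes, on RNA or in ribosome assembly, so the shared name does not mean a shared task.

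Ctcfl itself read 11.33, 11.22 and 11.24 in FLAG-CTCFL arrays, against 7.70, 7.85 and 7.89 in control vector arrays. That is a rise of 3.45 ± 0.05 on the log2 scale (SE; limma adjusted p = 6.15e-13), in keeping with the group labels. All 8 ES cell markers were bright, with group means between 10.24 and 13.26 in FLAG-CTCFL cells and between 10.20 and 13.64 in control vector cells, and 5 of them fell. The 6 fibroblast, 6 endoderm and 5 trophoblast markers stayed below 9 in both groups, with 1, 2 and 2 of them higher and 1, 0 and 0 lower, and of 4 neural markers 1 was higher, 1 lower and 1 (Tubb3) above 9. The summed log2 signal of the 5 trophoblast markers was 39.3 to 39.8 in FLAG-CTCFL arrays, against 38.4 to 38.7 in control vector arrays, and 2 of the 5 rose, while the ES marker sum was 97.2 to 98.4 against 99.8 to 99.9. The part of these shifts in the results below was not tested. In bulk RNA, fewer cells of a type and less RNA per cell cannot be told apart.

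The promoter sequences shown here are those of members at both ends of the list of differences and of neighbouring copies on chromosome 4. Each is the 250 bases before the annotated start (RefSeq, GRCm38.p6), 5′ to 3′ on the strand of the gene. Zfp961 and Zfp513 were among the largest rises and Zfp638 among the largest falls, and capitals mark a match, on either strand, to a core of the CTCF motif, written here as CC, any 3 bases, AG, any 2 bases and GGC. Zfp459 and Zfp74 had the 2 largest falls. Zfp980, Zfp985 and Zfp982 belong to 1 run of members on chromosome 4, with Zfp600 and Zfp991 between Zfp980 and Zfp982. RefSeq's table lists 2 promoters of Zfp513, of which 1 holds the pattern and is printed, and 3 of Zfp982, none with the pattern, of which the first is printed. None of these last 5 holds the pattern in this window.
Zfp961, chr8:71950816-71951065, plus strand: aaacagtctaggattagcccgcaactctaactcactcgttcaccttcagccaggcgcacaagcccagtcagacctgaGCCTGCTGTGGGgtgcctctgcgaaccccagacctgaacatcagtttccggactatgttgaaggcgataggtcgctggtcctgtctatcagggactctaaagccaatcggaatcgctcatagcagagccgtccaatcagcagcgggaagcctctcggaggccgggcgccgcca
Zfp513, chr5:31202304-31202553, minus strand: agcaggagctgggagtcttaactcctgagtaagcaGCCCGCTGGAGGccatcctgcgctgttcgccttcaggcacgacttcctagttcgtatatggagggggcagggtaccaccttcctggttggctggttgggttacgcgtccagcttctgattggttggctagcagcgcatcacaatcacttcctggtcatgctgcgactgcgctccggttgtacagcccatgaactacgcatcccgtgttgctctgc
Zfp638, chr6:83914103-83914352, plus strand: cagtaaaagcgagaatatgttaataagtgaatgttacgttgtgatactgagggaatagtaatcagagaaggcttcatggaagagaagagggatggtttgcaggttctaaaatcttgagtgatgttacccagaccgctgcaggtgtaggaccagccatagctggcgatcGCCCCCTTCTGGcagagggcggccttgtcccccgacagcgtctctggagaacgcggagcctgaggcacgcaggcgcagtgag
Zfp459, chr13:67421419-67421668, minus strand: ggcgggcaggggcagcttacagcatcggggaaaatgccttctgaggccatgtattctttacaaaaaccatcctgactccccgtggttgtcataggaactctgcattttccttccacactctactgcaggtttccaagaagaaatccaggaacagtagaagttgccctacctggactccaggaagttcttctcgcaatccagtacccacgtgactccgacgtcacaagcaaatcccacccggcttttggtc
Zfp74, chr7:29954066-29954315, minus strand: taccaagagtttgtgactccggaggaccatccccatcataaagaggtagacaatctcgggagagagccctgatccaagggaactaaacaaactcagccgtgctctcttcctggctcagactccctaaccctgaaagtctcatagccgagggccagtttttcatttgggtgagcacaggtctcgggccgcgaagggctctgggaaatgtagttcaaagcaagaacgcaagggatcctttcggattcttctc
Zfp980, chr4:145670447-145670696, plus strand: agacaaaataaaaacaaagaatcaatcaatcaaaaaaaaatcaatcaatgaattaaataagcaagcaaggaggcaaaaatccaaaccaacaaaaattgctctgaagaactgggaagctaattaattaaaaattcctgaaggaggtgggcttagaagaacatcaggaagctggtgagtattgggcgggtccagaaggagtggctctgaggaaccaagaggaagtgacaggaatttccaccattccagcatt
Zfp985, chr4:147553027-147553276, plus strand: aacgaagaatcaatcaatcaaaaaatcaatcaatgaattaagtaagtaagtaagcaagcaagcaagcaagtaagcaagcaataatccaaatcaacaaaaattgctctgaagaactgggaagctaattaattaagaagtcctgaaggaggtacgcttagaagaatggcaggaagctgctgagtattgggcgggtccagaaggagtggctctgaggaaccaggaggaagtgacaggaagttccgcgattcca
Zfp982, chr4:147442864-147443113, plus strand: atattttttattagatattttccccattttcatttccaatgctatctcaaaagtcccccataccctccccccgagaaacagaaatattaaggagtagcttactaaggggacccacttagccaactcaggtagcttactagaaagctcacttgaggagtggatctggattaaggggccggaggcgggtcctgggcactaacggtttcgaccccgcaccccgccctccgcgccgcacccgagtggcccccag

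Expressed Zfp genes moved in both directions, and mostly by little. In the fit over all genes 53 of the 106 members were called at an adjusted p under 0.05, 19 of them higher and 34 lower in FLAG-CTCFL cells. The background was 30.9% called over all genes (12.5% higher and 18.4% lower), and 50.6% over the 6875 genes with the same control level (16.1% higher and 34.5% lower). The median log2 difference was -0.059 over the members, 0.0037 over all genes and -0.044 over the genes at that level, and the members' quartiles were -0.22 and 0.076. At least 1.5-fold, 1 member was higher (Zfp532) and 2 were lower (Zfp459 and Zfp74), where all genes gave 0.787% and 2.77% and the genes at that level 0.669% and 6.79%. The arrays of both groups did not overlap for 62 members, 23 higher and 39 lower, where 41.3% of all genes (18.3% higher and 23.0% lower) and 59.8% of genes at that level (20.6% higher and 39.3% lower) were so separated. The members' control level chose them and the same control arrays stand in every difference, so these counts and medians are a description and nothing is read from them.

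**Figure D1:**
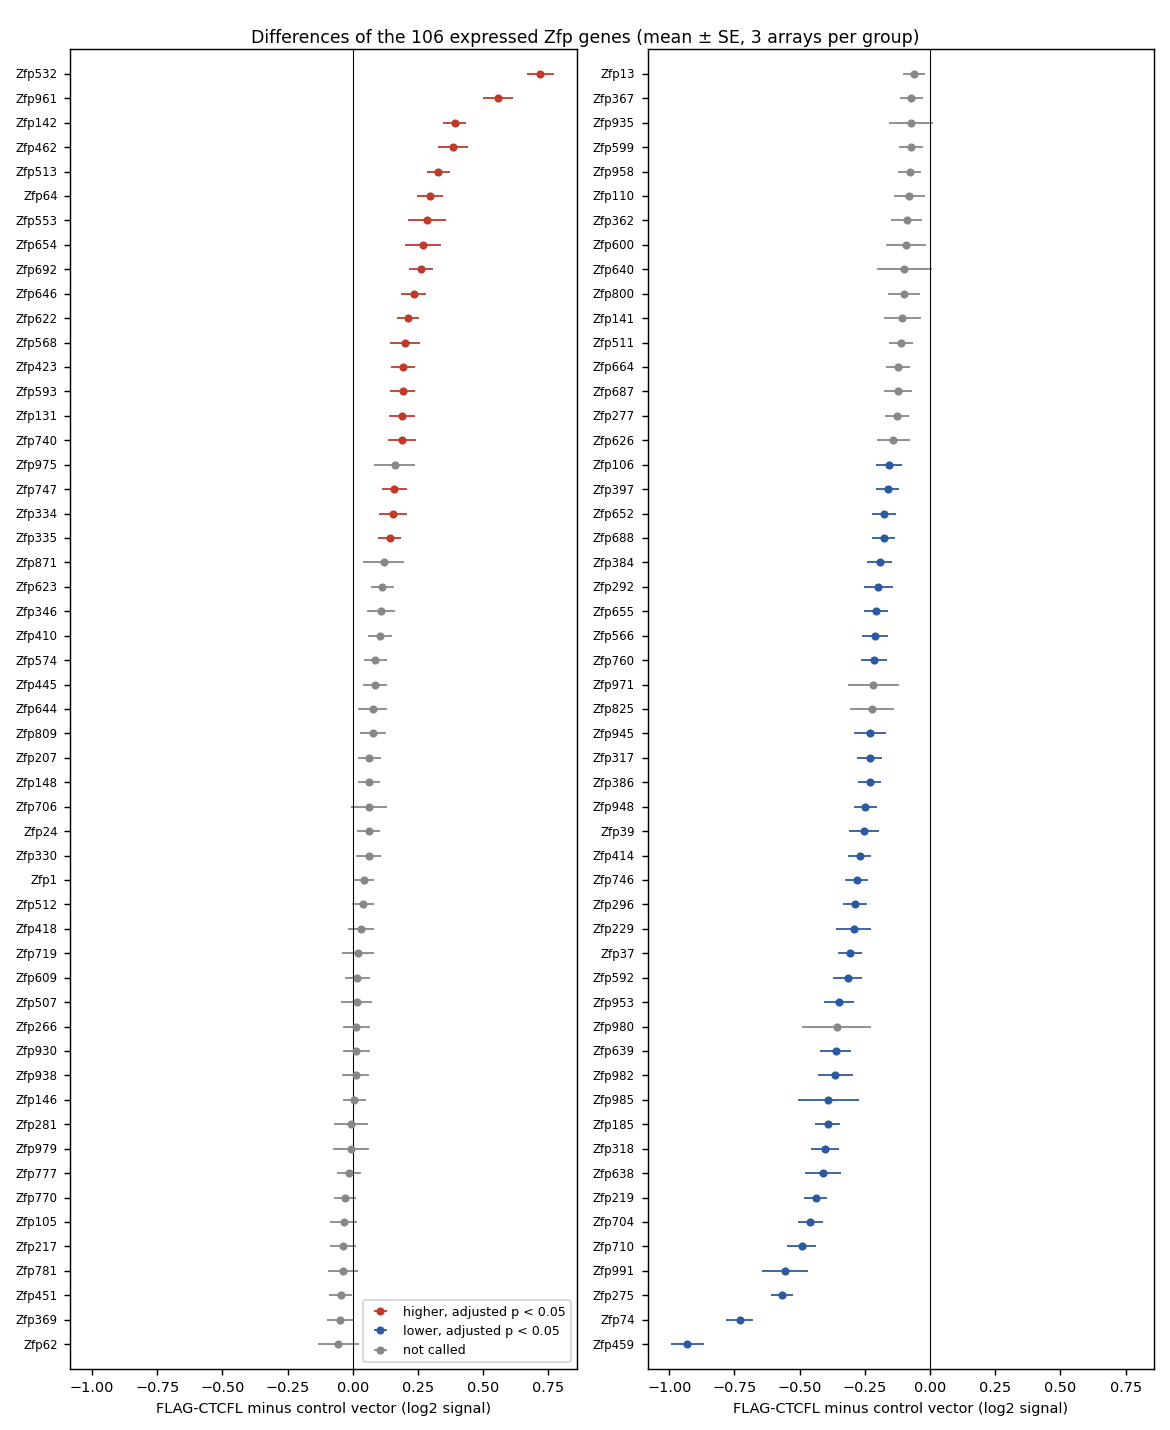
Log2 difference between FLAG-CTCFL and control vector cells for each of the 106 expressed Zfp genes, in order; points are means and bars the SE of the limma fit (3 arrays per group). The 19 members called higher reach up to 0.72 (Zfp532) and the 34 called lower reach down to -0.93 (Zfp459), while 53 were not called.

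The floor itself decided part of that balance. The members just inside it were Zfp13, Zfp747 and Zfp777, with control means of 9.01, 9.01 and 9.01 and differences of -0.063, 0.16 and -0.016. The genes just outside were Zfp407, Zfp580 and Zfp51, with control means of 8.99, 8.98 and 8.98 and differences of 0.28, 0.25 and 0.25, so their FLAG-CTCFL means of 9.27, 9.23 and 9.22 lay above 9. With the floor set on the FLAG-CTCFL mean instead, 27 of 103 Zfp genes were higher and 26 lower (median -0.0064). With the floor on the mean of all 6 arrays, 22 of 102 were higher and 29 lower (median -0.036). Shares of all genes under these other floors were not computed. The scaling of the arrays decided another part: after quantile normalization 34 of the 106 members were higher and 30 lower (median 0.0049), and 31.6% and 28.6% of the genes at that level. Subtraction of array medians gave 13 higher and 34 lower, and 10.6% and 34.4% of the genes at that level. No excess of falls or of rises is therefore stated for the group.

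Within the members, signal in the control vector cells spanned 9.01 to 12.28 with a median of 9.64, and in FLAG-CTCFL cells 8.50 to 12.34 with a median of 9.65. Among 1194 receptor genes of smell and pheromone sensing, which ES cells hardly use, 95% had control vector means under 7.63. The floor of 9 lies above that level, so by their selection all members do too. Between 9 and 10, 15 of 69 members were higher and 23 lower. Between 10 and 11, 4 of 25 were higher and 8 lower. Of the 12 members above 11, 0 were higher and 3 lower (Zfp991, Zfp384 and Zfp106) by limma. Among these 12, 7 had an unadjusted p under 0.05 in either direction. The shares of all genes within these bands were not computed, so nothing is read from the differences between bands.

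**Figure D2:**
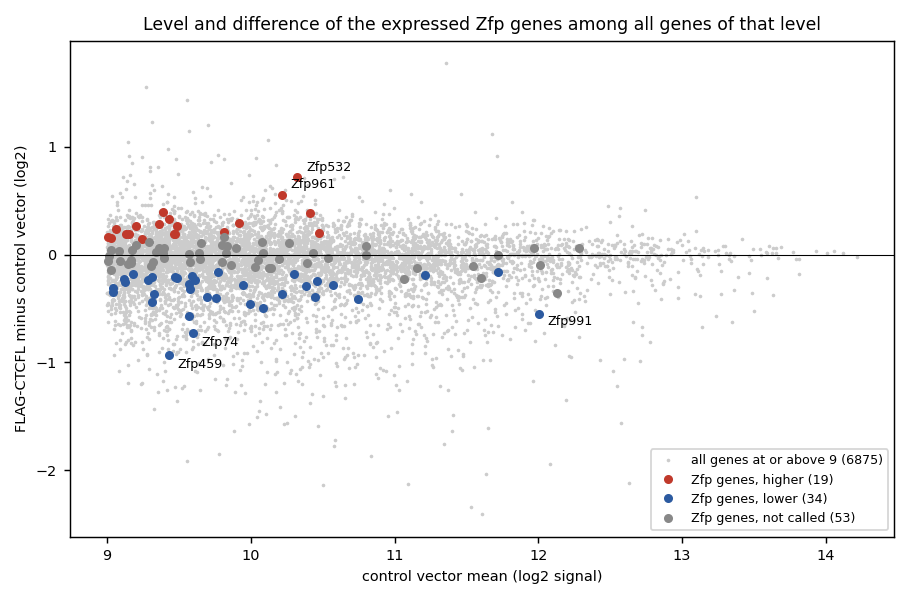
Log2 difference against the control vector mean (log2 signal) for the 106 expressed Zfp genes in colour and for all 6875 genes at or above 9 in grey. The Zfp genes lie within the cloud of other genes, and Zfp991 combines a high level with a fall of 0.55.

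Among the rises, Zfp532 stood first. It read 11.11, 10.93 and 11.09 in FLAG-CTCFL arrays, against 10.35, 10.35 and 10.27 in control vector arrays, and all 3 FLAG-CTCFL arrays were higher. The rise was 0.72 ± 0.05 on the log2 scale, or 1.65-fold (SE of the limma fit; adjusted p = 2.76e-07). In human cells its counterpart joins ZNF592, ZNF687 and the chromatin reader ZMYND8 in one complex. Zfp961, listed among the KRAB repressors of repeats, read 10.87, 10.64 and 10.79 in FLAG-CTCFL arrays and 10.28, 10.19 and 10.18 in control vector arrays, a rise of 0.56 ± 0.06 (SE; adjusted p = 7.43e-06). Its promoter, shown above, holds a match to the CTCF core 173 bases before the start. Zfp142 read 9.75, 9.74 and 9.85 in FLAG-CTCFL arrays, against 9.39, 9.39 and 9.38 in control vector arrays, a rise of 0.39 ± 0.04 (SE; adjusted p = 1.65e-05). Zfp462, which ties the enzymes of heterochromatin to enhancers of ES cells, read 10.89, 10.66 and 10.82 in FLAG-CTCFL arrays and 10.39, 10.46 and 10.38 in control vector arrays. Its rise of 0.38 ± 0.06 (SE; adjusted p = 0.000158) was not shared by its neighbours, whose median was -0.18. Zfp513, known in humans from a retinal disease, rose by 0.33 and Zfp64, whose human counterpart activates the MLL gene, by 0.30. For each of these 6 genes the arrays of the groups did not overlap and the call held in all 15 refits with another scaling, filter, variance model or set of arrays.

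The other 6 of the 12 largest rises with separate arrays were smaller, between 0.19 and 0.27. They were Zfp654 (0.27), Zfp692 (0.26), Zfp646 (0.23), Zfp622 (0.21), Zfp568 (0.20) and Zfp423 (0.19). Zfp622 is a maturation factor of the large ribosomal subunit, Zfp568 is the KRAB repressor of a placental Igf2 transcript and Zfp423 is a partner of SMAD and EBF factors. Zfp622 read 10.05, 9.98 and 10.04 in FLAG-CTCFL arrays, against 9.84, 9.80 and 9.80 in control vector arrays, so its small rise exceeded the spread (SE 0.04; limma adjusted p = 0.00158). Zfp568 missed the threshold once array medians were subtracted (limma adjusted p = 0.0859), without control vector replicate 3 (0.0781) and without a variance shared between genes (0.145). Without a shared variance Zfp654 (adjusted p = 0.151) and Zfp423 (adjusted p = 0.0631) were lost as well.

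Zfp459 had the largest fall. It read 8.61, 8.42 and 8.47 in FLAG-CTCFL arrays, against 9.50, 9.50 and 9.29 in control vector arrays, and the groups lay far apart. The difference was -0.93 ± 0.06, or 1.91-fold lower (SE of the limma fit; adjusted p = 1.70e-07). Its neighbours on chromosome 13 had a median of -0.042. Zfp74 read 8.92, 8.77 and 8.91 in FLAG-CTCFL arrays and 9.57, 9.67 and 9.55 in control vector arrays, a fall of -0.73 ± 0.05 (SE; 1.66-fold lower; adjusted p = 2.25e-07). It sits on chromosome 7 in a row of zinc finger genes that moved in different directions: Zfp568 rose, Zfp566 fell by 0.21 and Zfp146 was not called (0.0063). Zfp710, also on chromosome 7, read 9.71, 9.50 and 9.55 in FLAG-CTCFL arrays, against 10.09, 10.09 and 10.06 in control vector arrays (-0.49 ± 0.05, SE; adjusted p = 1.15e-05). Zfp318, which in B cells controls the reading through of immunoglobulin transcripts, fell by 0.40, with neighbours at a median of 0.044. Zfp638 read 10.46, 10.15 and 10.39 in FLAG-CTCFL arrays and 10.71, 10.79 and 10.74 in control vector arrays, a fall of -0.41 ± 0.07 (SE; adjusted p = 0.000401). Its human counterpart silences unintegrated retroviral DNA together with the HUSH complex, and its promoter holds a match to the CTCF core 82 bases before the start. Of these 5 falls, that of Zfp638 alone was lost in 1 of the 15 refits, without a shared variance (adjusted p = 0.0632).

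**Figure D3:**
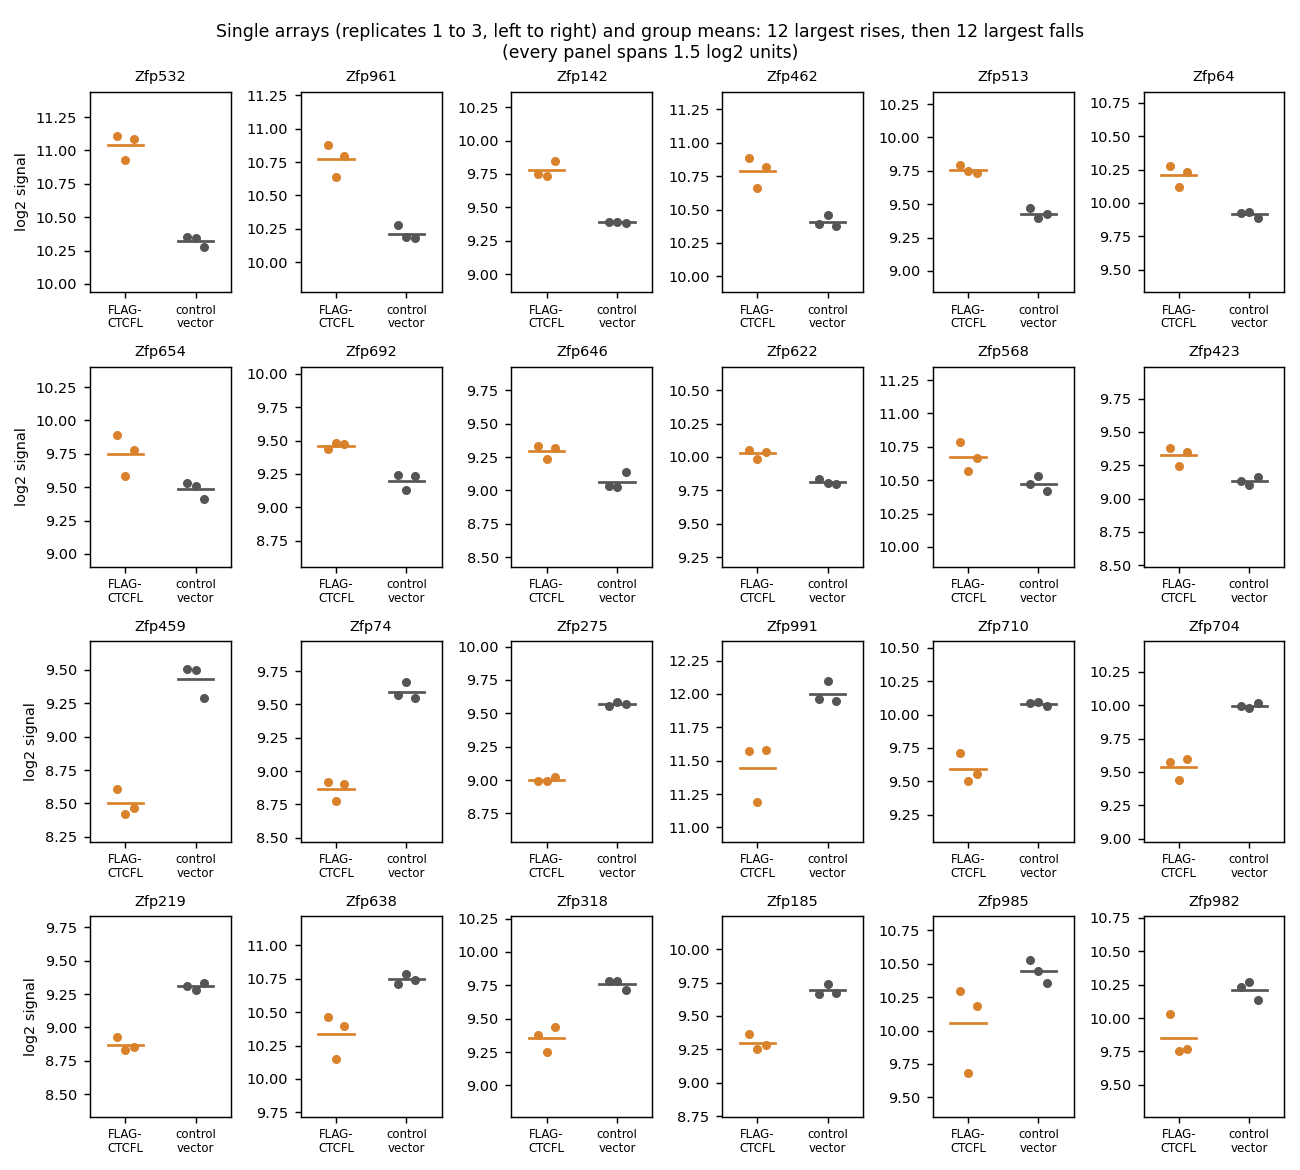
Log2 signal of each array (points, replicates 1 to 3 from left to right) with group means (lines), FLAG-CTCFL left and control vector right, for the 12 largest rises (upper rows) and 12 largest falls (lower rows) with separate arrays. Every panel spans 1.5 log2 units, and FLAG-CTCFL replicate 2 is often the lowest of its group.

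Other falls belonged to genes whose chromosomal neighbours were lower too. Zfp275 read 8.99, 8.99 and 9.03 in FLAG-CTCFL arrays, against 9.56, 9.59 and 9.57 in control vector arrays (-0.57 ± 0.04, SE; limma adjusted p = 2.33e-07). Zfp185, which despite its name codes for an actin-associated protein with a LIM domain, lies close by on chromosome X and fell by 0.39. The 20 nearest measured genes above the median signal, 10 on either side, had a median difference of -0.78 around both. Zfp219 on chromosome 14 read 8.93, 8.83 and 8.85 in FLAG-CTCFL arrays and 9.31, 9.28 and 9.34 in control vector arrays (-0.44 ± 0.04, SE; adjusted p = 5.84e-06), with neighbours at -0.61. Zfp704 on chromosome 3 fell by 0.46 with neighbours at -0.21, and Zfp384 on chromosome 6 fell by 0.19 with neighbours at -0.30. On chromosome X as a whole, 64.0% of genes at that level were lower and 8.26% higher (median -0.33). The shares were 70.9% and 8.14% on chromosome 14 (-0.42), and 52.2% and 11.7% on chromosome 6 (-0.16). On chromosome 3 they were 30.3% and 20.6% (-0.020), against 34.5% and 16.1% over all chromosomes. Whether a fall belongs to a gene's surroundings or to its whole chromosome was not tested. In all, 5 of the 34 falling members had neighbours lower by over 0.1 at the median, 3 of the 19 rising members (Zfp553, Zfp740 and Zfp747) had neighbours higher by over 0.1, and 6 of 52 members not called had neighbours shifted over 0.1 in the gene's own direction. Outside chromosomes 6, 14 and X, 28 of 98 members (28.6%) were lower and 19 (19.4%) higher. The shares of all genes outside these chromosomes were not computed, so nothing is read from these counts. On chromosome 6, 3 of 5 members were lower, on chromosome 14 1 of 1 and on chromosome X 2 of 2, with 0 higher on each.

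**Figure D4:**
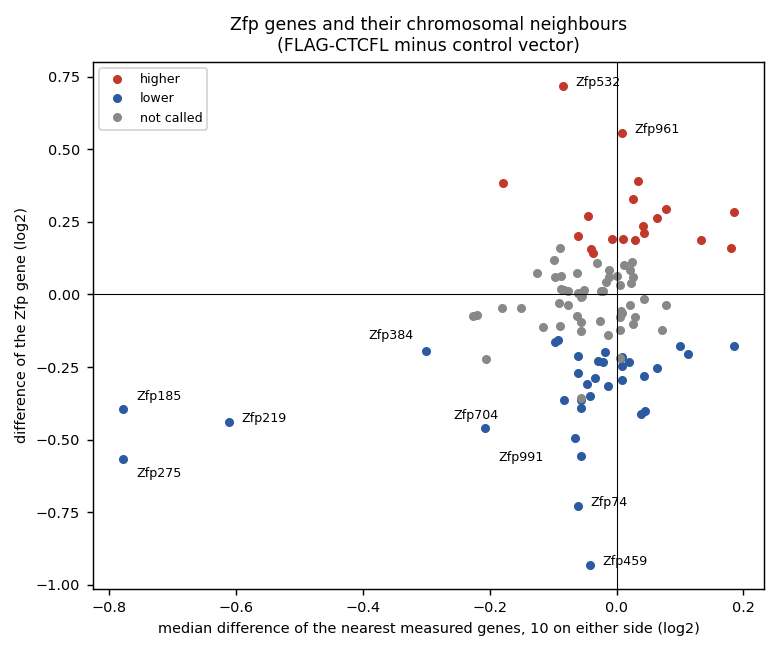
Difference of each expressed Zfp gene (log2, vertical) against the median difference of its 20 nearest measured genes above the median signal (log2, horizontal), for the 105 members with a place in the gene table. Zfp275, Zfp185 and Zfp219 sit far to the left with lower neighbours, while Zfp459, Zfp74, Zfp532 and Zfp961 have neighbours near 0.

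A row of 6 neighbouring members on chromosome 4 formed the longest uninterrupted run of members in the order of measured genes. In order they were Zfp980, Zfp600, Zfp991, Zfp982, Zfp985 and Zfp979, and 3 of them fell and 0 rose (limma; median -0.36), while the genes around the run had a median of -0.056. Zfp991 read 11.58, 11.19 and 11.58 in FLAG-CTCFL arrays, against 11.96, 12.10 and 11.95 in control vector arrays, a fall of -0.55 ± 0.09 (SE; adjusted p = 0.000264). Zfp982 read 10.03, 9.75 and 9.77 in FLAG-CTCFL arrays and 10.23, 10.27 and 10.13 in control vector arrays (-0.36 ± 0.07, SE; adjusted p = 0.00106). Both groups stayed apart for these genes. Without a shared variance the calls of Zfp991 (adjusted p = 0.0695) and Zfp982 (0.0832) were lost, and they held in the other 14 of 15 refits. Zfp985 read 10.30, 9.68 and 10.18 in FLAG-CTCFL arrays, against 10.53, 10.45 and 10.36 in control vector arrays (-0.39 ± 0.12, SE; adjusted p = 0.0216). Its call was lost without control vector replicate 1 (adjusted p = 0.0848) or 2 (0.0631) and without a shared variance (0.269), and without FLAG-CTCFL replicate 2 its fall was 0.20 in size (-0.20; adjusted p = 0.0126). A further probe set of Zfp985 differed by -0.57. Zfp980, the second brightest member, read 12.13, 11.38 and 11.81 in FLAG-CTCFL arrays and 12.13, 12.21 and 12.05 in control vector arrays, so its groups overlapped (-0.36 ± 0.13, SE; adjusted p = 0.0583). Without FLAG-CTCFL replicate 2 it differed by -0.16 (adjusted p = 0.146). Zfp600 (-0.093) and Zfp979 (-0.0076) were not called.

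These chromosome 4 genes belong to a family of recent duplicates, and the sequences printed above show it for one pair. The upstream sequences of Zfp980 and Zfp985 were 79.6% identical in their best alignment, while the 27 other pairs among the 8 sequences reached 43.6% to 52.7%. The further promoters of Zfp982 and Zfp513 were not aligned. Probe sets of such gene copies may read each other's RNA, which was not tested. Values of single genes in this run are therefore uncertain and cannot be taken as independent. Shorter runs, with at most 2 other measured genes between members, lay on chromosome 17 (Zfp948, Zfp760 and Zfp229, 3 of 3 lower, at -0.25, -0.21 and -0.29, with neighbours at 0.0081) and on chromosome 7 (Zfp74, Zfp568, Zfp566 and Zfp146). On chromosome 17 as a whole 6 of 8 members were lower and 0 higher, on chromosome 7 6 of 20 lower and 4 higher, and on chromosome 13 2 of 8 lower and 1 higher. Of all genes at that level, 32.0% were lower and 16.9% higher on chromosome 17, 30.2% and 19.3% on chromosome 7, 37.3% and 9.80% on chromosome 13, and 29.6% and 18.0% on chromosome 4. The 2 falls on chromosome 13 were those of Zfp459 and Zfp953 (-0.35). Zfp953, Zfp948, Zfp760, Zfp229, Zfp566 and Zfp146 were named after their values were seen.

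**Figure D5:**
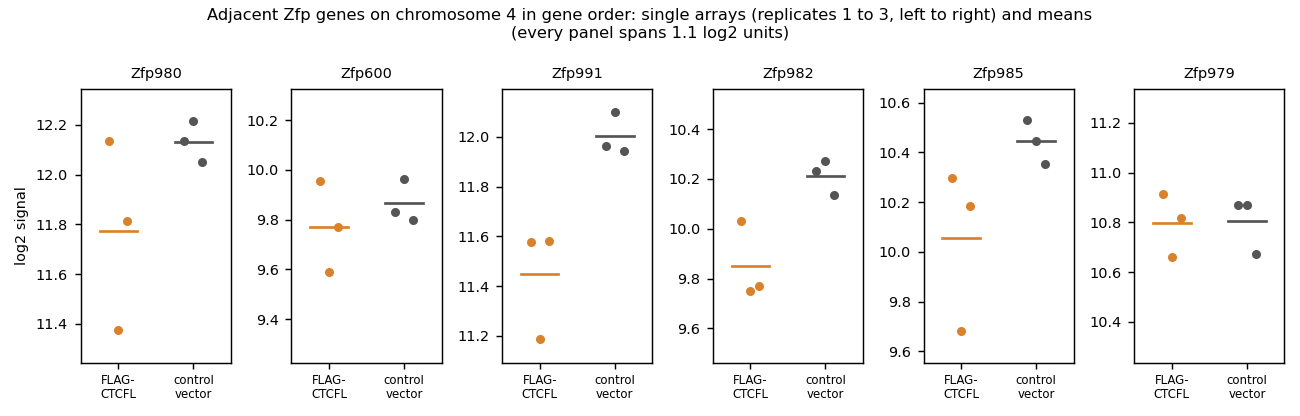
Log2 signal of each array (points, replicates 1 to 3 from left to right) and group means (lines), FLAG-CTCFL left and control vector right, for the 6 adjacent Zfp genes of chromosome 4 in gene order. Every panel spans 1.1 log2 units. FLAG-CTCFL replicate 2 is the lowest of its group in all 6, and Zfp991, Zfp982 and Zfp985 have separate groups.

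FLAG-CTCFL replicate 2 read low for many members. It was the lowest of the 3 FLAG-CTCFL arrays for 83 of 106 members (78.3%) and for 71.1% of all genes at that level. For 8 members the FLAG-CTCFL arrays had an SD over 0.2, which 1.03% of genes at that level had: Zfp871, Zfp935, Zfp640, Zfp971, Zfp825, Zfp980, Zfp985 and Zfp991, and in all 8 that array was the lowest. Zfp640, for example, read 12.19, 11.59 and 11.98 in FLAG-CTCFL arrays, against a mean of 12.02 ± 0.015 in control vector arrays (SD), a difference of -0.098 ± 0.11 (SE; limma adjusted p = 0.580). No member had an SD over 0.2 among the control vector arrays. Without this array 25 members were higher and 34 lower, with a median of -0.013, beside 21.3% and 31.6% of all genes at that level.

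Of the Zfp genes known as regulators of ES cells, 7 of the 8 listed were members, and 1 rose and 2 fell. The background for this and the following lists of members is that of all genes at that level, of which 16.1% were higher and 34.5% lower, and nothing particular to a list is read from counts this small. Zfp462 rose, as given above, while Zfp219 and Zfp296 fell. Zfp296, a partner of the NuRD complex in pluripotent cells, read 10.35, 10.25 and 10.25 in FLAG-CTCFL arrays, against 10.57, 10.60 and 10.54 in control vector arrays, so the groups did not overlap (-0.29 ± 0.05, SE; limma adjusted p = 0.000278). Zfp281, a transcription factor of the exit from the naive state, read 11.83, 11.53 and 11.77 in FLAG-CTCFL arrays and 11.68, 11.75 and 11.72 in control vector arrays (-0.0064 ± 0.07, SE; adjusted p = 0.963). Its groups overlapped, as did those of Zfp706, a factor of the exit from the naive state (0.062), Zfp207, a spindle protein that binds Bub3 (0.064), and Zfp217, a member of CtBP and LSD1 corepressor complexes (-0.037). The list median was -0.0064, and after quantile normalization 2 were higher and 2 lower with a median of 0.076. With that scaling 31.6% of all genes at that level were higher and 28.6% lower.

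KRAB repressors of retroviral repeats and imprints were represented by 4 members of 7 listed, of which 2 rose and 0 fell (background 16.1% and 34.5%). Zfp961 and Zfp568 rose, as above. Zfp445, which guards imprints together with Zfp57, read 9.90, 9.83 and 9.92 in FLAG-CTCFL arrays and 9.87, 9.77 and 9.76 in control vector arrays (0.085; limma adjusted p = 0.212). Zfp809, which silences murine retroviruses through their primer binding site, read 10.93, 10.82 and 10.88 in FLAG-CTCFL arrays, against 10.72, 10.84 and 10.85 in control vector arrays (0.075; adjusted p = 0.313). Both had overlapping groups. After quantile normalization all 4 were higher, and after subtraction of array medians 1 was. Of the genes at that level, 31.6% were higher after quantile normalization and 10.6% after subtraction of array medians. The list median was 0.14.

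Among the genes of the pathway that KRAB proteins act through, 22 of 24 listed were measured, 21 of them at or above the floor, and 9 (40.9%) fell and 0 rose (limma; median -0.057). Of all genes at that level 34.5% were lower and 16.1% higher, so the share of falls was near the background. Trim28, the corepressor itself, averaged 13.17 ± 0.094 in FLAG-CTCFL arrays and 13.04 ± 0.039 in control vector arrays (SD; difference 0.13; adjusted p = 0.0775). Setdb1, its methyltransferase partner, fell by 0.17 (adjusted p = 0.0423), and Atf7ip, which stabilises SETDB1, fell by 0.55. Resf1, which works with SETDB1 on retroviral repeats, fell by 0.40, and the chromatin remodeller Atrx by 0.59. Smaller falls were those of Chd3 (-0.24), Hdac2 (-0.22), Uhrf1 (-0.21), Morc3 (-0.21) and Chd4 (-0.16). The calls of Atf7ip, Atrx, Chd3 and Uhrf1 held in all 15 refits and that of Resf1 in 14. Those of Hdac2, Chd4, Morc3 and Setdb1 held in only 12, 10, 8 and 7. The neighbours of Atrx on chromosome X had a median of -0.62, those of Atf7ip and Chd4 on chromosome 6 of -0.32 and -0.29. The sign of the list median depended on scaling and on 1 array. It was 0.024 after quantile normalization and 0.0098 without FLAG-CTCFL replicate 2, while falls still outnumbered rises. After quantile normalization 5 were higher and 7 lower, beside 31.6% and 28.6% of all genes at that level. Trim28 (0.16, adjusted p = 0.0141) was then among the higher, and Setdb1 (adjusted p = 0.0821) and Chd4 (0.195) were no longer called. Without FLAG-CTCFL replicate 2, 5 were higher and 6 lower, beside 21.3% and 31.6% of all genes at that level.

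Partners of other corepressors moved both ways, with 3 of 8 members higher and 3 lower (background 16.1% and 34.5%). The 3 genes of the ZMYND8 complex differed from each other: Zfp532 rose by 0.72, Zfp592 fell by 0.32 and Zfp687 was not called (-0.12; limma adjusted p = 0.102). Zfp592 read 9.32, 9.12 and 9.33 in FLAG-CTCFL arrays, against 9.53, 9.61 and 9.58 in control vector arrays (adjusted p = 0.000769). The other members of this list were Zfp462, Zfp296 and Zfp638, already described, Zfp131, which has a BTB domain (0.19; adjusted p = 0.0109), and Zfp644, a partner of the G9a and GLP methyltransferases (0.076; adjusted p = 0.363). The call of Zfp131 held in 11 of 15 refits and that of Zfp592 in 14. The list median was -0.024 and turned to 0.056 after quantile normalization.

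Of 6 members that act on RNA or ribosomes, 2 rose and 2 fell (background 16.1% and 34.5%). The rises were those of the pair of large-subunit factors, Zfp622 and Zfp593, whose yeast counterpart helps to export the subunit. Zfp593 read 9.70, 9.57 and 9.70 in FLAG-CTCFL arrays and 9.51, 9.41 and 9.46 in control vector arrays, with no overlap (0.19 ± 0.05, SE; limma adjusted p = 0.00950). Zfp638 fell, and so did Zfp106, an RNA-binding protein needed by motor neurons (-0.16; adjusted p = 0.0272). The call of Zfp106 held in 8 of 15 refits and was lost, among others, after quantile normalization (-0.068; adjusted p = 0.161). Zfp346, a binder of double-stranded RNA (0.11; adjusted p = 0.157), and Zfp207 were not called. The list's median was 0.086. Zfp451, a SUMO ligase in human cells, was the 1 member of 5 listed ubiquitin and SUMO ligases (-0.047; adjusted p = 0.505).

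Of 9 members known from development and signalling, 3 rose and 2 fell (background 16.1% and 34.5%). Zfp64 and Zfp423 rose, as did Zfp335 (0.14; limma adjusted p = 0.0278), whose human counterpart is mutated in a form of microcephaly. The call of Zfp335 held in 9 of 15 refits (highest adjusted p = 0.151, without control vector replicate 2) and that of Zfp292 in 12. Zfp384, which binds runs of A and T, and Zfp292 (-0.20; adjusted p = 0.0149) fell. Zfp384 read 11.10, 11.03 and 10.94 in FLAG-CTCFL arrays, against 11.19, 11.21 and 11.25 in control vector arrays, without overlap (-0.19 ± 0.05, SE; adjusted p = 0.00775), and with quantile normalization it missed the threshold (-0.11; adjusted p = 0.0837). Zfp277, which works with the Polycomb protein Bmi1, stayed just outside the threshold (-0.13; adjusted p = 0.0521). Zfp148, which binds GC-rich promoters (0.062), and the neurotrophin receptor binders Zfp110 (-0.079) and Zfp369 (-0.048) were not called. The list median was -0.048, and 0.028 after quantile normalization.

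The promoters of members were described by features that the choice of members did not use. RefSeq's table held 112 promoters of 86 members, 250 bases before to 50 after a start. The CTCF core pattern was present in 19 of them (17.0%), against 8.61% of all 32851 promoters of that length. Their median GC share was 55.7%, against 52.7%, and their median number of CG pairs 16 against 7, so the pattern, which is rich in G and C, was searched in sequences of different composition. It was found in 4 of 17 promoters of members that rose (Zfp961 and Zfp513 among them), in 5 of 39 of members that fell (Zfp638 among them) and in 10 of 56 of members not called. A match says only that these letters are present. The 32851 promoters include those of genes below the floor, while members were chosen on their signal. The share for promoters of genes at or above the floor was not computed, so nothing is read from 17.0% against 8.61%.

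Other zinc finger families at the same level were few. Of 15 Zbtb genes, with a BTB domain beside the fingers, 0 were higher and 7 (46.7%) lower by limma (median -0.088), where 16.1% of all genes at that level were higher and 34.5% lower. Of 4 Zscan and Zkscan genes 0 were higher and 1 lower, and of 7 Zc3h genes, whose fingers bind RNA, 1 was higher and 1 lower. Of the 207 Zfp genes below the floor 29 were higher and 39 lower (median 0.0016), a share called of 32.9% beside 30.9% of all genes. All genes include those at or above the floor, of which 50.6% were called. The share of all genes below the floor was not computed, so nothing is read from the 32.9%. The difference between these families and the members was not tested. The 4 genes left out by name read, as FLAG-CTCFL and control vector means, 9.71 and 8.82 for Zfp352, 7.87 and 8.53 for Zfp36, 11.46 and 11.57 for Zfp42, and 12.67 and 12.65 for Zfp57. For 6 members a further probe set was on the array, and its difference was 0.00024 for Zfp141, -0.071 for Zfp640, -0.074 for Zfp664, 0.018 for Zfp706, -0.39 for Zfp825 and -0.57 for Zfp985, each of the same sign as the one used except for Zfp141 (-0.11).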

How the data were processed

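RNA of 6 samples was read on Affymetrix Mouse Gene 1.0 ST arrays, per the labels' protocols. The deposited table holds 1 log2 signal per probe set and array (34760 probe sets); values run between 5.73 and 14.56, which fits log2, with array medians of 7.92 to 7.99. How the authors corrected, summarised and normalized them is not given in the sources used here.

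Probe sets with 1 annotated symbol (21640) were kept and named by Entrez ID through the GRCm38.p6 table (21553 matched); the brightest per gene gave 19937 genes. limma 3.58.1 (R 4.3.3) gave two-sided tests from lmFit and eBayes with no covariate; p-values were adjusted over all genes by Benjamini-Hochberg, and calls needed an adjusted p under 0.05. Differences are FLAG-CTCFL minus control vector on the log2 scale with moderated SE. Neighbours were the 10 nearest measured genes on either side above the median signal, members left out. The procedure was tested on simulated data. Protein features were not analysed here.

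Members and lists were chosen with earlier results of these data known. Named genes were the 12 largest rises and 12 largest falls with separate arrays, members on role lists, those at the floor, the 3 brightest (Zfp706, Zfp980 and Zfp640), called genes of the KRAB pathway, Ctcfl, Ctcf and the genes left out. Ctcf differed by 0.014 (adjusted p = 0.880). Deviations of same-numbered arrays from their group means had correlations of 0.13, -0.20 and -0.021. Arrays with unlike numbers reached -0.35 and 0.34. Deviations from a mean of 3 arrays depend on each other, so these values cannot decide whether the numbers pair the arrays. The number of arrays limits the precision.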

Additional observations from a re-analysis of the deposited data

How the results depend on the processing

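The count of members higher was 19 and of members lower 34. With quantile normalization 34 were higher (31.6% of the genes at that level) and the median was 0.0049. With array weights 30 were higher and 43 lower, beside 24.8% and 41.9% of the genes at that level. Without a variance shared between genes 9 were higher and 20 lower, beside 8.41% and 23.5%. At least 1.5-fold in the main fit, 1 was higher and 2 lower, beside 0.669% and 6.79%. A control floor of 8 gave 42 and 64 of 237, and a floor of 10 gave 4 and 11 of 37 with a median of -0.11. A floor on the FLAG-CTCFL mean gave a median of -0.0064, against -0.059. Shares of all genes under these other floors were not computed. With 1 array left out, 15 to 25 were higher and 30 to 45 lower, with medians of -0.078 to -0.013. The extremes came without FLAG-CTCFL replicate 1 (45 lower) and replicate 2 (25 higher). Among the genes at that level these refits gave 11.7% to 21.3% higher and 29.0% to 38.7% lower, with the highest shares in the same refits. With the replicate number as a block 19 were higher and 36 lower with the same median. Whether the numbers pair the arrays could not be decided. The other settings kept both counts within 1.5 times, and no called gene named in the text changed sign in any of 15 refits. Of the 53 calls, 27 held in all 15 refits (9 higher and 18 lower), and 24 were lost without a shared variance. Replicate 2 of the FLAG-CTCFL group, similar gene copies on chromosome 4, and unknown scaling by the authors limit small differences. The causes of these changes were not tested.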
